A study of Mus musculus with 36 samples.

Results

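Transcripts of 9 genes that govern glucose output and glucose entry were followed in the livers of 36 male C57BL/6J mice, out of 24421 genes counted in every library. The members were chosen by symbol, with earlier results of these data known, and each was found in all 36 libraries. They are Pck1, G6pc, Fbp1 and Ppargc1a on the side of glucose production, Slc2a2, Gckr and Pklr on the side of glucose entry and glycolysis, and Pdk2 and Pdk4 at the entry of pyruvate into the mitochondrial cycle. Every mouse, controls included, was 7 weeks old when purchased and had eaten the CDAHFD, a high-fat diet built on L-amino acids and lacking choline that produces features of steatohepatitis, for 12 weeks before treatment. In the HFD experiment the mice then ate a high-fat diet for 2 weeks and received Fc at 4.3 mg/kg (n = 10) or Fc(mML1)B3 at 5 mg/kg (n = 10) subcutaneously once a week. In the standard diet experiment they ate a standard diet for 10 days and received Fc at 4.3 mg/kg (n = 9) or Fc(mML1)B3 at 5 mg/kg (n = 7) on days 1, 4 and 7. Fc is the crystallizable region of an antibody without a graft, and Fc(mML1)B3 is the same region carrying in its B3 loop a macrocyclic peptide that binds and activates mouse Met, the receptor of hepatocyte growth factor. Food was freely available in a room with a daily light cycle, and mice shared cages. Whether food was withdrawn before the livers were taken, and at which hour they were taken, is not given in the sources used here.

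The liver makes glucose in the fasted state and stores or burns it after meals. Glucagon and glucocorticoids raise transcription of Pck1 and G6pc in fasting, while insulin lowers both. Insulin and incoming carbohydrate raise liver pyruvate kinase. Pyruvate dehydrogenase kinases close the gate from pyruvate to acetyl-CoA when fat is the fuel. Many of these genes also follow the daily clock. On mm10 the annotation in the files places Pck1 at chr2:173153073-173159253, G6pc at chr11:101367730-101377903, Fbp1 at chr13:62864753-62888282, Ppargc1a at chr5:51454249-51553921. It places Slc2a2 at chr3:28697903-28728360, Gckr at chr5:31297581-31327302, Pklr at chr3:89136142-89146594, Pdk2 at chr11:95026258-95041371, Pdk4 at chr6:5483351-5496278.

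Total counts were 14949035 to 28466853 per library, with a median of 23558194.5. Levels are given in CPM, the counts of a gene relative to the library total, scaled over the 36 libraries with TMM factors. A gene was called at an adjusted p below 0.05 in the quasi-likelihood F-test of edgeR with Benjamini-Hochberg adjustment over all genes tested in the comparison, and all 9 members passed the filter on low counts in every comparison. These are bulk livers, in which fewer cells of a type and less RNA per cell cannot be told apart. Summed CPM of 7 hepatocyte markers were 74276 to 150291 in the 36 mice. Summed CPM of adipocyte, muscle and pancreas markers reached at most 0.932, 0.276 and 1.12. The sample numbers carried by the deposited counts divide the Fc(mML1)B3 mice of the HFD experiment into mice 1 to 4 and mice 5 to 10, in 2 series that both start at 1. No source says what the series stand for, and members under the HFD are given for each series where it changed a call or a direction, and for G6pc and Pklr. The Fc mice of that experiment carry numbers 1 to 10, and no source says whether any shared a series with Fc(mML1)B3 mice. Protein and series can therefore not be told apart under the HFD, also where 1 series is set against all Fc mice.

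The 4 promoters below are examples in which a motif could be marked. Pklr and Pdk2 carry changes described here, and G6pc and Pck1 varied widely between mice of 1 group. Fbp1, Slc2a2, Gckr and Pdk4 also carry changes described here and are not shown. All 9 symbols matched the RefSeq promoter table of build GRCm38.p6, with 2 start sites each for Pklr and Pdk2. Each line holds the 250 bases before the transcript start, 5′ to 3′ on the strand of the gene. Capitals mark the carbohydrate response element in Pklr, CACGTG in Pdk2, TTACGTNA (of the cAMP response element kind) in Pck1 and TGTTTTG (of the forkhead kind) in G6pc.
Pklr, liver start, chr3:89136373-89136622, plus strand: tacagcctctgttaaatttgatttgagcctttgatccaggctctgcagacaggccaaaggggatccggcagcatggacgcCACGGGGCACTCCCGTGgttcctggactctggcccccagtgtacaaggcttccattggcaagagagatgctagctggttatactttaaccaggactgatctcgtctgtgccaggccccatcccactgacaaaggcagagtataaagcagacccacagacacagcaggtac
Pdk2, chr11:95041372-95041621, minus strand: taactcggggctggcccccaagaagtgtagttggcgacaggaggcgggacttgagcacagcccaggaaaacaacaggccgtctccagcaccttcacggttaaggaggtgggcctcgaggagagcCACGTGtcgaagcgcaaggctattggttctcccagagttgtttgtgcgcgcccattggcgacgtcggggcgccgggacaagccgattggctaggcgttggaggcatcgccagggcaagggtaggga
Pck1, chr2:173152823-173153072, plus strand: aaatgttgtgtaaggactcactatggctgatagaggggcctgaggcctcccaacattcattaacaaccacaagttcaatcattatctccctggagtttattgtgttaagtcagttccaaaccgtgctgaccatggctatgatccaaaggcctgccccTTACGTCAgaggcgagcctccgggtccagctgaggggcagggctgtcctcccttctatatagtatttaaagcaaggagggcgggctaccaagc
G6pc, chr11:101367466-101367715, plus strand: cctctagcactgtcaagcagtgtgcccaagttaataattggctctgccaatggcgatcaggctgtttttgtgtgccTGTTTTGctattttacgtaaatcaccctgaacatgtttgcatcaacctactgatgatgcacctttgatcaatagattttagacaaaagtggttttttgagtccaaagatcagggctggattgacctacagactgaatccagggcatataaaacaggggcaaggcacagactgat
These motifs, with TGACG and TATAAA, were chosen after the sequences had been seen and were searched on both strands of all 32851 windows of 250 bases. The carbohydrate response element, at which ChREBP and Mlx bind in the liver pyruvate kinase gene, was in 0.0974% of windows and lay 170 to 154 bases before the Pklr start. TTACGTNA was in 0.788% of windows, CACGTG in 6.02%, TGTTTTG in 5.56%, TGACG (which overlaps TTACGTNA in Pck1) in 17.8% and TATAAA in 12.4%. TTACGTNA also occurred in the G6pc window, 162 to 155 bases before its start, and TGTTTTG also in the Gckr window, 83 to 77 bases before the start. None of the motifs was found in the windows of Fbp1, Slc2a2 and Pdk4, or at the other start of Pklr or Pdk2. These matches are letters in a window and were not tested as binding sites.

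Per length, the members spanned a wide range of levels. In TPM, which also divides by transcript length, averaged over the 36 mice, Fbp1 stood at 1719, Pck1 at 1332, G6pc at 258, Slc2a2 at 245, Pklr at 243, Gckr at 158, Pdk2 at 86.5, Pdk4 at 6.51 and Ppargc1a at 2.95. Fbp1 and Pck1 were the most abundant per length, and Pdk4 and Ppargc1a the scarcest. The fewest reads were 64 for Pdk4 and 100 for Ppargc1a in a single mouse, against 14985 for Fbp1. Reads of the members were not shared with a neighbour, since no member had an exon overlapping another gene on mm10.

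Spread between mice varied by gene and group. Among Fc mice under the HFD, the coefficient of variation of CPM was 73.7% for G6pc, 53.7% for Pklr, 43.0% for Pdk4 and 41.8% for Pck1. In the Fc mice under the standard diet it was 23.7% for G6pc, 14.6% for Pklr, 30.3% for Pdk4 and 25.2% for Pck1. Fbp1 and Gckr varied least there, with 4.38% and 4.09%, against 22.7% and 22.8% in Fc mice under the HFD. In Fc(mML1)B3 mice the order of the diets was not the same for every gene. G6pc had 27.6% on the HFD and 40.8% on the standard diet, while Pck1 had 59.9% and 16.6%, Pdk4 54.2% and 34.7%, and Pklr 20.3% and 15.1%. The HFD values of Fc(mML1)B3 mice pool the 2 sample series. For Pck1 the series did not overlap, at 1675 to 3008 CPM (mice 1 to 4) and 508 to 1191 (mice 5 to 10). Pdk4 did not overlap either, at 7.10 to 14.4 and 14.96 to 39.5 CPM. These are descriptions, and no difference in spread was tested.

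**Figure D1:**
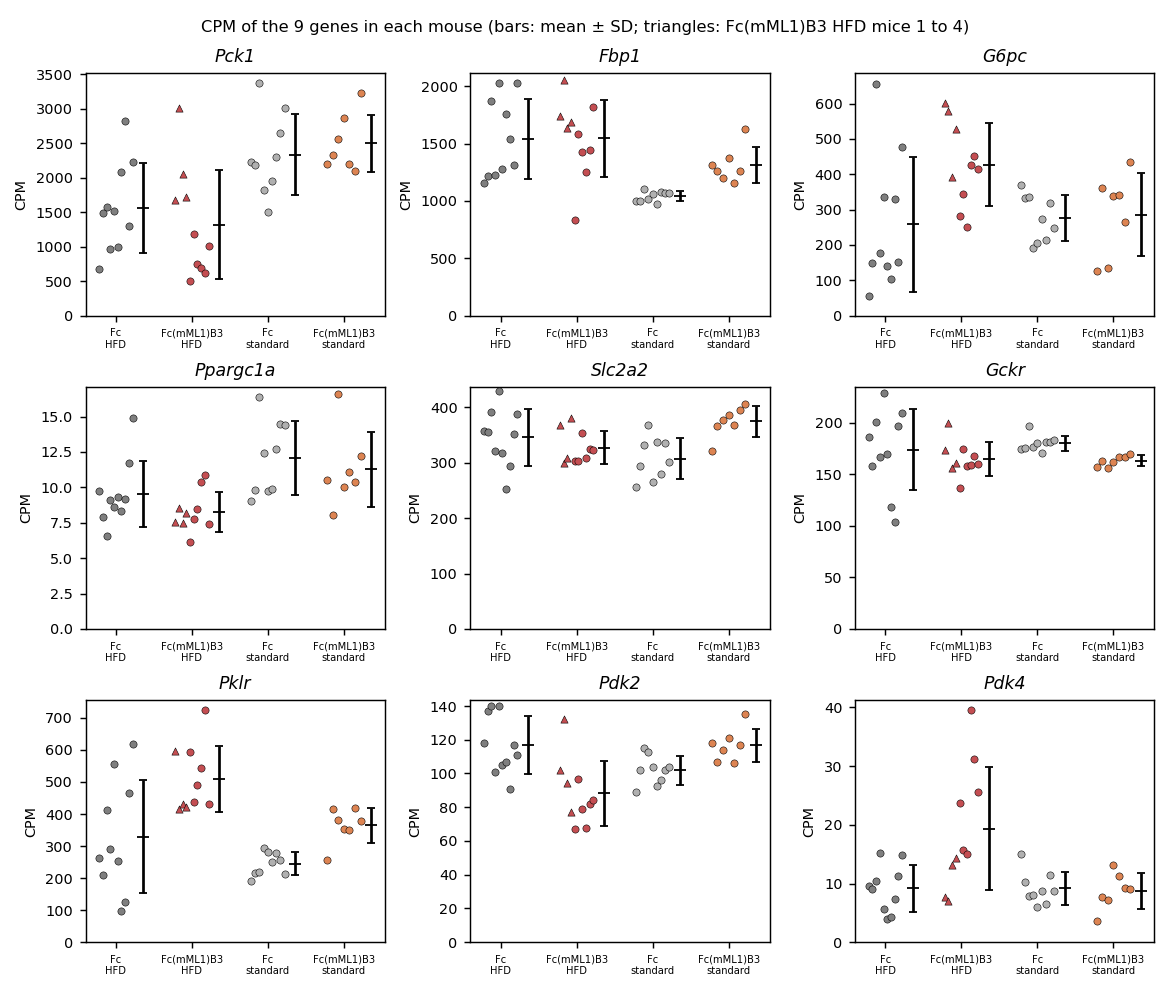
CPM of each gene (y axis, from 0) in each mouse of the 4 groups (x axis), with the group mean and SD beside the points and triangles for Fc(mML1)B3 mice 1 to 4 of the HFD experiment. Pdk4 in Fc(mML1)B3 mice 5 to 10 lies between 14.96 and 39.5 CPM and in mice 1 to 4 between 7.10 and 14.4, and Fbp1 under the standard diet separates the 7 Fc(mML1)B3 mice from the 9 Fc mice.

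Fc(mML1)B3 was first compared with Fc under the HFD. Pdk4 rose and Pdk2 fell with all 10 Fc(mML1)B3 mice, and neither was called with mice 1 to 4 alone. The other 7 members were not called, with Pklr 1.56-fold and G6pc 1.67-fold higher without passing the test. Across all 13299 genes tested, 14.8% were called, 8.14% higher and 6.68% lower, so 2 of 9 members, 1 in each direction, is not far from that background. The median log2 fold change of the members was -0.06, against -0.01 for all genes tested.

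Pdk4 encodes the kinase that shuts pyruvate dehydrogenase during fasting and fat burning. It measured 3.98, 9.28 and 15.2 CPM (lowest, median, highest) in the Fc mice and 7.10, 15.3 and 39.5 CPM in the Fc(mML1)B3 mice. The groups overlapped, with 5 of the 10 Fc(mML1)B3 mice above every Fc mouse and 8 above the Fc median. The log2 fold change was 1.08 (SE 0.29, adjusted p = 0.0137 in edgeR's quasi-likelihood test), a 2.12-fold higher level. Against all 10 Fc mice, Fc(mML1)B3 mice 1 to 4 gave 0.23 (adjusted p = 0.638 in edgeR), with CPM of 7.10, 10.5 and 14.4, and mice 5 to 10 gave 1.46 (adjusted p = 0.00129 in edgeR), with CPM of 14.96, 24.7 and 39.5. The call thus rested on mice 5 to 10.

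Clock transcripts differed between the same groups. Of 14 clock genes tested, 5 were higher and 7 lower, against 8.14% and 6.68% of all genes. Arntl, the positive limb of the daily clock, measured 0.621, 1.14 and 2.12 CPM in the Fc mice and 6.59, 19.7 and 28.6 in the Fc(mML1)B3 mice, with no overlap. Dbp, an output gene of the clock that overlaps Sphk2 on the opposite strand, measured 73.1, 97.8 and 133.4 against 3.14, 6.33 and 24.8 CPM, also with no overlap. Nr1d1, a clock repressor, went from 83.4 ± 42.7 to 10.4 ± 5.71 CPM (mean ± SD, n = 10 each). The 2 series differed here too, with an Arntl median of 11.8 CPM in mice 1 to 4 and 25.1 in mice 5 to 10. Over all 36 mice, log2 CPM centred within groups gave a Pearson r of 0.57 between Pdk4 and Arntl, of -0.63 between Pdk4 and Dbp and of -0.34 between Pdk4 and Nr1d1. For Pdk2 r was -0.28 with Arntl, 0.40 with Dbp and 0.42 with Nr1d1. For the other members it lay between -0.33 (G6pc with Nr1d1) and 0.31 (Gckr with Nr1d1). These are descriptions over mice that share library series, and the part of the clock genes in the Pdk4 and Pdk2 differences was not tested.

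Pdk2, the more abundant kinase of pyruvate dehydrogenase in liver, went the other way. It stood at 91.1, 114 and 140 CPM in Fc mice and at 66.9, 83.2 and 132.1 CPM in Fc(mML1)B3 mice. Although the groups overlapped, 9 of 10 Fc(mML1)B3 mice lay below the Fc median and 6 lay below every Fc mouse. The fall was -0.39 on the log2 scale (SE 0.11, adjusted p = 0.0237 in edgeR's quasi-likelihood test). With mice 1 to 4 alone it was -0.17 (adjusted p = 0.449 in edgeR) and with mice 5 to 10 -0.55 (adjusted p = 0.00288 in edgeR). The call was also lost without Fc mouse 2 or Fc(mML1)B3 mouse 4 or 8, with log2 fold changes of -0.47 to -0.34 over all single omissions.

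G6pc, the catalytic subunit that releases free glucose, measured 56.4, 165 and 656 CPM in Fc mice and 252, 420 and 603 CPM in Fc(mML1)B3 mice. All 10 Fc(mML1)B3 mice lay above the Fc median, but Fc mice reached from below to above the whole Fc(mML1)B3 range. The difference of 0.74 on the log2 scale (SE 0.32, adjusted p = 0.124 in edgeR) was not called. Without Fc mouse 3, at 656 CPM the highest of the Fc group, it was 1.02 and was called. With mice 1 to 4 it was 1.05 and with mice 5 to 10 0.49, neither called (adjusted p = 0.142 and 0.465 in edgeR).

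Pklr, liver pyruvate kinase, was also widely spread among the Fc mice. Its CPM were 97.6, 277 and 620 in Fc mice and 416, 464 and 725 in Fc(mML1)B3 mice. All 10 Fc(mML1)B3 mice were above the Fc median and 7 of 10 Fc mice were below every Fc(mML1)B3 mouse. The log2 fold change of 0.64 (SE 0.25, adjusted p = 0.0853 in edgeR) did not pass, but it passed without Fc mouse 5 or 10 (up to 0.79) and in 1 fit over all 36 libraries (0.63, adjusted p = 0.0245). With mice 1 to 4 it was 0.53 and with mice 5 to 10 0.71, neither called (adjusted p = 0.338 and 0.144 in edgeR).

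Pck1, the cytosolic carboxykinase that commits oxaloacetate to glucose, had 670, 1502 and 2828 CPM in Fc mice and 508, 1102 and 3008 in Fc(mML1)B3 mice. The pooled difference was -0.23 on the log2 scale (95% confidence interval -0.84 to 0.39) and was not called. Its levels in the Fc(mML1)B3 group separated by series, at 1675, 1881 and 3008 CPM in mice 1 to 4 and 508, 724 and 1191 in mice 5 to 10. Against all Fc mice, the first series gave 0.47 (adjusted p = 0.295 in edgeR) and the second -0.97 (adjusted p = 0.0234 in edgeR), so the direction for Pck1 depended on which Fc(mML1)B3 mice were used.

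The other HFD members showed small differences. Fbp1, fructose bisphosphatase, had a log2 fold change of 0.02 (95% confidence interval -0.28 to 0.32), and its sign turned to -0.14 with mice 5 to 10 alone. For Gckr, a regulatory protein of hepatic glucose phosphorylation, the value was -0.06 (interval -0.30 to 0.17). For Slc2a2, the GLUT2 transporter of the hepatocyte surface, it was -0.07 (-0.24 to 0.11), and with mice 1 to 4 alone both genes reversed, to 0.02 and 0.00. Ppargc1a, the PGC-1α coactivator of fasting genes, was at -0.19 (-0.45 to 0.07). No member separated the groups without overlap, as 0.872% of 14105 genes did.

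**Figure D2:**
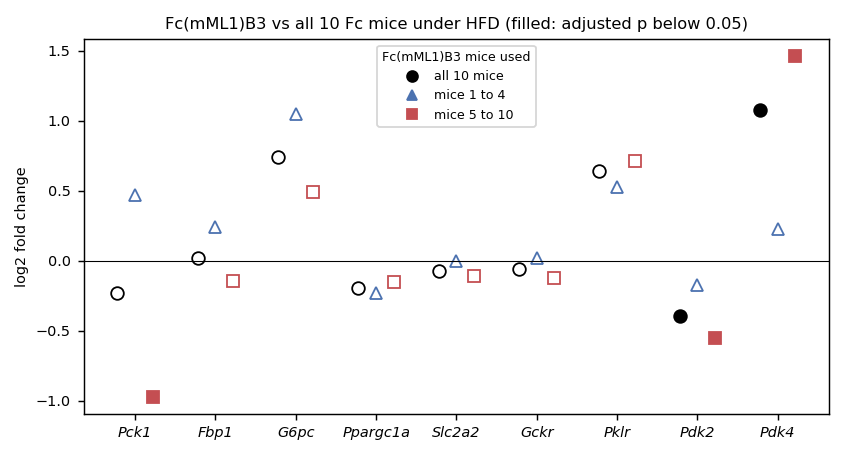
log2 fold change of Fc(mML1)B3 against all 10 Fc mice under the HFD (y axis) for each gene (x axis), with all 10 Fc(mML1)B3 mice (circles), mice 1 to 4 (triangles) or mice 5 to 10 (squares), filled where the adjusted p was below 0.05. Pck1 lies at 0.47 with mice 1 to 4 and -0.97 with mice 5 to 10, and Pdk4 at 0.23 with mice 1 to 4 against 1.08 with all mice.

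Under the standard diet, Fc(mML1)B3 mice had more Fbp1, Pklr, Slc2a2 and Pdk2 transcript and less Gckr than Fc mice. The largest of these changes was in Pklr, 1.49-fold, and the smallest in Gckr, 0.902-fold. With 5 of 9 members called, 4 higher and 1 lower, the share exceeded the 16.1% of all 13570 tested genes, 8.56% higher and 7.55% lower. The members were chosen with earlier results of these data known, so the excess is a description. In 1 fit over all libraries only Slc2a2 kept its call. The median log2 fold change was 0.09, against -0.01 over all genes tested.

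On the glucose-production side, Fbp1 measured 973, 1062 and 1105 CPM in the Fc mice and 1153, 1259 and 1625 in the Fc(mML1)B3 mice. All 7 Fc(mML1)B3 mice lay above all 9 Fc mice. The log2 fold change was 0.33 (SE 0.06, adjusted p = 0.00075 in edgeR). Pck1, G6pc and Ppargc1a overlapped widely between the same mice. Pck1 had medians of 2229 and 2332 CPM and a log2 fold change of 0.09 (-0.19 to 0.38), G6pc 0.05 (-0.41 to 0.50) and Ppargc1a -0.11 (-0.40 to 0.19).

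Glucose entry genes changed in opposite directions. Slc2a2 had 257, 302 and 368 CPM in Fc mice and 322, 377 and 407 in Fc(mML1)B3 mice, and 5 of the 7 lay above every Fc mouse. Its log2 fold change was 0.28 (SE 0.07, adjusted p = 0.00881 in edgeR). Gckr measured 171, 180 and 197 CPM against 156, 163 and 170. All 7 Fc(mML1)B3 mice were below all 9 Fc mice, although the difference was only -0.15 on the log2 scale (SE 0.04, adjusted p = 0.00953 in edgeR). Fbp1 and Gckr were the 2 of 9 members without overlap, against 2.81% of 14105 genes.

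Pklr measured 192, 250 and 294 CPM in Fc mice and 257, 379 and 420 in Fc(mML1)B3 mice. Of the latter, 6 of 7 exceeded every Fc mouse, and mouse 1 at 257 did not. The log2 fold change was 0.58 (SE 0.10, adjusted p = 0.000417 in edgeR). Under the HFD it had been 0.64 without passing the test, and the difference between the 2 effects was -0.05 (95% confidence interval -0.67 to 0.58, adjusted p = 0.959 in edgeR).

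Of the 2 kinases, Pdk2 was called and Pdk4 was not, and no test compared them. Pdk2 had 89.0, 102 and 115 CPM in Fc mice and 106, 117 and 134.6 in Fc(mML1)B3 mice, a log2 fold change of 0.19 (SE 0.06, adjusted p = 0.0298 in edgeR) that was lost in 6 of the 16 fits leaving out 1 library (the lowest value was 0.16). Of the 7 Fc(mML1)B3 mice all were above the Fc median and 4 above every Fc mouse. Pdk4 overlapped throughout, at 5.93, 8.67 and 15.1 CPM in Fc mice against 3.60, 9.14 and 13.1, with a log2 fold change of -0.08 (-0.51 to 0.36).

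In 1 fit over all 36 libraries, Slc2a2 remained called at 0.28. Fbp1 at 0.33 (adjusted p = 0.131), Pklr at 0.58 (adjusted p = 0.144), Pdk2 at 0.20 (adjusted p = 0.309) and Gckr at -0.14 (adjusted p = 0.474) did not (all edgeR), and the cause was not tested. With only the Fc mice whose sample numbers were above 100, as those of all Fc(mML1)B3 mice were, Gckr was at -0.14 and lost its call (adjusted p = 0.0833 in edgeR). With all 9 Fc mice, Arntl differed by -1.05 and Nr1d1 by -1.68 on the log2 scale, both called, and Dbp by 0.14, not called. Of 15 clock genes tested, 7 were higher and 4 lower, against 8.56% and 7.55% of all genes. The 4 Fc mice numbered above 100 had 2.29 to 3.86 CPM of Arntl and at least 102 of Nr1d1, against 0.920 to 3.38 and at most 63.8 in the 7 Fc(mML1)B3 mice. Their median Dbp of 80.6 CPM was above that of the Fc(mML1)B3 mice, 66.9.

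**Figure D3:**
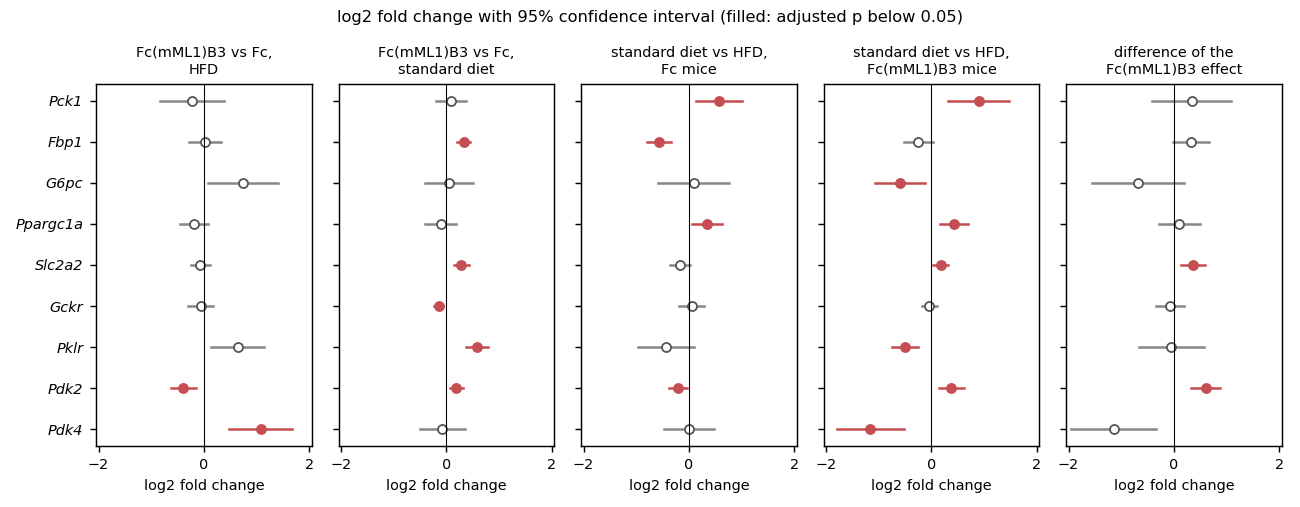
log2 fold change (x axis) with its 95% confidence interval for the 9 genes (rows) in the 5 comparisons (panels), filled red where the adjusted p was below 0.05. Pdk2 is at -0.39 in the HFD panel and 0.19 in the standard diet panel, and Pdk4 has wide intervals, 0.48 to 1.68 under the HFD.

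An interaction over 36 libraries asked whether Fc(mML1)B3 acted on a gene to the same extent in both experiments. Pdk2 and Slc2a2 passed. Their differences were 0.60 (SE 0.14, adjusted p = 0.00309 in edgeR) and 0.36 (SE 0.11, adjusted p = 0.0364 in edgeR) on the log2 scale, the effect under the standard diet minus that under the HFD. The Slc2a2 call was lost with RLE normalization (adjusted p = 0.0528 in edgeR) and without the filter on low counts (adjusted p = 0.0659 in edgeR). Over 14105 genes, 9.06% passed, 4.66% with a positive and 4.40% with a negative difference, against 2 of 9 members, both positive. Pdk4 had the widest difference, -1.14 (95% confidence interval -1.95 to -0.34, adjusted p = 0.0658 in edgeR), and was not called. With only mice 1 to 4 of the Fc(mML1)B3 HFD group, neither gene passed: Pdk2 was at 0.37 (adjusted p = 0.164 in edgeR) and Slc2a2 at 0.29 (adjusted p = 0.275 in edgeR). With mice 5 to 10, 4 members passed, Pck1 at 1.06 and Pdk4 at -1.53 in addition, against 13.7% of all genes. Diet, dosing and length of treatment all differ between the 2 experiments and cannot be told apart.

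The 2 experiments were also compared within each protein, which sets the standard diet against the HFD after the same 12 weeks of CDAHFD. Dosing, length of treatment and most sample numbers differ along with diet here too. In Fc mice, Pck1 and Ppargc1a were higher and Fbp1 and Pdk2 lower under the standard diet. That is 4 of 9 members, 2 in each direction, close to the 49.0% of 13506 genes that differed (23.9% higher, 25.2% lower). Fbp1 fell from 1155, 1426 and 2028 CPM to 973, 1062 and 1105, so that every mouse on the standard diet was below every mouse on the HFD. Its log2 fold change was -0.57 (SE 0.11, adjusted p = 0.000213 in edgeR). It was the 1 member of 9 without overlap, against 9.42% of 14105 genes.

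Pck1 moved opposite to Fbp1 between the same mice. Its CPM were 670, 1502 and 2828 under the HFD and 1509, 2229 and 3374 under the standard diet. All 9 standard diet mice were above the HFD median. The log2 fold change was 0.58 (SE 0.21, adjusted p = 0.0276 in edgeR), and the call was lost without standard diet mouse 3 (0.50) or 9 (0.52) and in 1 fit over all libraries (adjusted p = 0.0571 in edgeR). Ppargc1a, at 6.59, 9.14 and 14.9 against 9.05, 12.4 and 16.4 CPM, differed by 0.34 (SE 0.13, adjusted p = 0.0393 in edgeR) and lost its call in 11 of 19 fits leaving out 1 library. Pdk2 differed by -0.20 (SE 0.08, adjusted p = 0.0481 in edgeR) and lost it in 14 of 19, with values of -0.23 to -0.15, and in 1 fit over all libraries (adjusted p = 0.0842 in edgeR). The members that were not called had values of 0.09 (G6pc), 0.05 (Gckr), -0.44 (Pklr), 0.00 (Pdk4) and -0.17 (Slc2a2).

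In Fc(mML1)B3 mice, 7 of 9 members differed between the diets. Pck1, Pdk2, Slc2a2 and Ppargc1a were higher under the standard diet and G6pc, Pklr and Pdk4 lower. Of 13627 genes, 38.2% differed, 19.1% in each direction. Pck1 went from 508, 1102 and 3008 CPM to 2099, 2332 and 3228, with 9 of 10 HFD mice below every standard diet mouse. Its log2 fold change was 0.90 (SE 0.28, adjusted p = 0.0164 in edgeR). Pdk4 went from 7.10, 15.3 and 39.5 CPM to 3.60, 9.14 and 13.1, which is -1.16 on the log2 scale (SE 0.31, adjusted p = 0.00564 in edgeR), and Pdk2 rose by 0.38 (SE 0.11, adjusted p = 0.00983 in edgeR).

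Both Pklr and G6pc were lower in these mice on the standard diet. Pklr fell from 416, 464 and 725 CPM to 257, 379 and 420, and 9 of 10 HFD mice lay above all standard diet mice. Its log2 fold change was -0.50 (SE 0.12, adjusted p = 0.00258 in edgeR). G6pc was at -0.60 (SE 0.23, adjusted p = 0.0437 in edgeR), Slc2a2 at 0.18 (SE 0.07, adjusted p = 0.0463 in edgeR) and Ppargc1a at 0.43 (SE 0.13, adjusted p = 0.0124 in edgeR). Removal of 1 library ended the call for G6pc in 10 of 17 fits and for Slc2a2 in 13 of 17. In 1 fit over all 36 libraries, G6pc (-0.58, adjusted p = 0.15), Pklr (-0.48, adjusted p = 0.0921) and Slc2a2 (0.19, adjusted p = 0.0607) were not called (all edgeR), and the other 4 were. No member separated the diets without overlap in these mice, against 9.90% of 14105 genes.

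Sample series again mattered for the comparison in Fc(mML1)B3 mice. With mice 1 to 4 as the HFD group, 4 of 9 members were called (1 higher, 3 lower), close to the 40.7% of all 13690 genes tested. Pdk4 was then at -0.29 (adjusted p = 0.408 in edgeR), Pck1 at 0.22 (adjusted p = 0.282 in edgeR) and Pdk2 at 0.17 (adjusted p = 0.236 in edgeR), and Fbp1 was called at -0.47. With mice 5 to 10, 5 of 9 were called, against 4775 of all 13631 genes. Pck1 was then at 1.64 and Pdk4 at -1.54, both called, and G6pc at -0.35 was not. Pklr was called with either series, at -0.38 and -0.57.

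Markers of other cell types differed between the experiments as well. The 8 stellate cell markers summed to 821 to 1541 CPM in Fc mice under the HFD and 677 to 1036 under the standard diet, and 5 of the 8 were lower. Of 8 macrophage markers 3 were lower in the Fc mice (450 to 1266 against 333 to 545 CPM), and of 5 lymphoid markers all 5 (6.85 to 17.5 against 4.84 to 8.60 CPM). Of 5 cholangiocyte markers 3 were lower (168 to 854 against 228 to 498 CPM, medians 571 and 321). Of 6 hepatocyte markers tested 3 were higher. Over all genes in the same mice, 25.2% were lower and 23.9% higher. In Fc(mML1)B3 mice the summed macrophage markers were 470 to 1004 CPM under the HFD and 317 to 440 under the standard diet, and the stellate markers 795 to 1723 and 576 to 773, both without overlap. Of these, 3 of 8 and 6 of 8 were lower, as were 2 of 5 cholangiocyte markers and 19.1% of all genes. Of 3 tested neutrophil markers 1 was lower and 1 higher, and 2 of 6 hepatocyte markers were higher. Adipocyte Lep was at 0 in all 4 groups. The part of cell makeup in the diet differences of the members was not tested. Within the HFD, 1 of 5 lymphoid and 2 of 3 tested neutrophil markers were lower in Fc(mML1)B3 mice, as were 6.68% of all genes, and the 8 macrophage and 8 stellate markers had median log2 fold changes of -0.39 and -0.23. The 5 cholangiocyte markers summed to 168 to 854 CPM (median 571) in Fc mice and 166 to 841 (median 309) in Fc(mML1)B3 mice, none of them called in edgeR (1, Spp1, at an unadjusted p under 0.05). Under the standard diet, 1 of 8 macrophage, 1 of 8 stellate and 1 of 5 cholangiocyte markers were lower in Fc(mML1)B3 mice, where 7.55% of all genes were lower and 1 of 8 is near that share.

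Genes around the members were read from 4 lists of 88 genes, 86 of them tested. In Fc(mML1)B3 against Fc mice, 13 were higher and 4 lower under the HFD, and 30 were higher and 6 lower under the standard diet. Over all genes tested, 8.14% were higher and 6.68% lower under the HFD and 8.56% and 7.55% under the standard diet. Values of list genes under the HFD are for all 10 Fc(mML1)B3 mice and were not split by series, apart from Foxo1 CPM. Of 27 tested genes of glycolysis and sugar uptake, 5 were higher and 2 lower under the HFD and 14 higher and 1 lower under the standard diet, with list medians of 0.02 and 0.18 against -0.01 for all genes in both. Of 17 partners of glucose production, 2 and then 7 were higher and 1 was lower each time. Of 12 genes of pyruvate dehydrogenase and the pyruvate carrier, 1 and then 4 were higher, and of 30 regulators, 5 were higher under each diet and 1 and 4 lower.

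Slc37a4, which carries glucose 6-phosphate to the G6pc enzyme, rose under both diets in Fc(mML1)B3 against Fc mice, by 0.38 under the HFD and, from 162 ± 14.8 (mean ± SD, n = 9) to 253 ± 25.5 CPM (n = 7) without overlap, by 0.64 under the standard diet.

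Under the HFD, Slc2a5, a fructose transporter, stood at 11.4 ± 3.91 CPM in Fc mice and at 3.57 ± 1.43 in Fc(mML1)B3 mice, a fall on the log2 scale of -1.66 (adjusted p = 2.19e-05 in edgeR). It was not called under the standard diet, and the interaction was 1.96 (adjusted p = 2.35e-06 in edgeR). Pfkfb1, which sets the level of fructose 2,6-bisphosphate in liver, rose by 0.73, and Gpd1, the glycerol 3-phosphate dehydrogenase, by 0.74. Hnf4a, Mlx, Irs1 and Pgk1 rose by 0.37, 0.32, 0.47 and 0.32, and Ppargc1b and Aqp9, the glycerol channel, fell by 0.77 and 0.36. Reads of Mlx may include its antisense neighbour Psmc3ip, since strand was not used in counting.

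Under the standard diet, Foxo1, the insulin-restrained activator of G6pc and Pck1, stood at 36.04 ± 3.72 CPM in Fc mice and 52.1 ± 5.31 in Fc(mML1)B3 mice, a rise of 0.53 on the log2 scale (adjusted p = 3.02e-05 in edgeR). Under the HFD it was at -0.01 with all 10 Fc(mML1)B3 mice, and the interaction was 0.56 (adjusted p = 0.0107 in edgeR). The pooled HFD value joined 2 series on either side of the Fc mean of 42.89 CPM (37.24 to 54.25). Mice 1 to 4 had a mean of 52.44 CPM (42.35 to 60.53) and mice 5 to 10 of 35.23 (32.32 to 43.72). No Foxo1 fit for each series is given. The alanine aminotransferases Gpt and Gpt2, which feed pyruvate from amino acids, rose by 0.34 and 0.51, Tkfc by 0.51, Pgk1 by 0.23 and Mdh2 by 0.24. Among genes of pyruvate dehydrogenase, Pdhb rose by 0.31 and Pdhx by 0.32. Esrra and Mlx rose by 0.63 and 0.34, and each overlaps a gene on the opposite strand. Mlxipl, which encodes ChREBP, had values of 0.25 and -0.13 under the HFD and the standard diet, and Txnip, one of its targets, of -0.29 and -0.19, none of them called. Txnip overlaps Gm15441 on the opposite strand.

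Between the diets, more genes of the glycolysis list were lower than higher under the standard diet. In Fc mice 16 of 27 were lower and 2 higher (list median -0.41, against -0.04 for all genes), where 25.2% of all genes were lower and 23.9% higher. In Fc(mML1)B3 mice 12 were lower and 5 higher (median -0.22, against -0.04), where 19.1% of all genes went each way. Aldoa at -0.63 and Pfkfb1 at -0.59 were among those in Fc mice, and Khk, ketohexokinase, at -0.61 and Pfkfb1 at -0.89 in Fc(mML1)B3 mice. The regulators went the other way, with 15 of 30 and 12 of 30 higher and 4 and 3 lower. Mlxipl rose by 0.77 and 0.39 and Foxo3 by 1.72 and 1.37 in Fc and Fc(mML1)B3 mice. Pdpr, a subunit of pyruvate dehydrogenase phosphatase, had the largest change of the 4 lists, from 0.593 ± 0.320 to 7.86 ± 1.67 CPM in Fc mice (3.68 on the log2 scale) and 3.63 in Fc(mML1)B3 mice, and it overlaps 9430091E24Rik on the opposite strand. The 2 diet comparisons use different mice throughout.

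**Figure D4:**
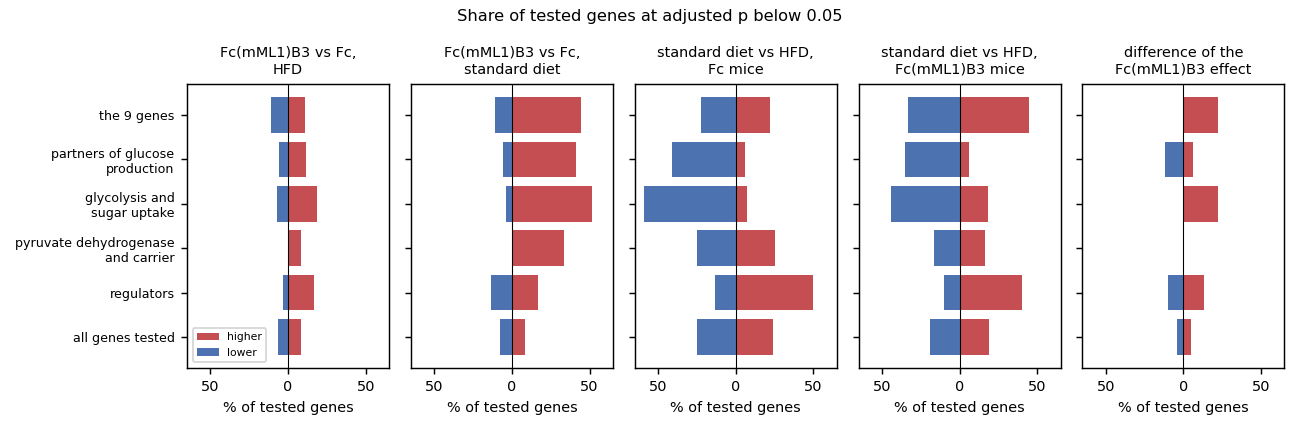
Share of tested genes (x axis, %) called higher (red, right) and lower (blue, left) in the 9 genes, the 4 lists and all genes tested (rows), in the 5 comparisons (panels). Of the glycolysis and sugar uptake list, 14 of 27 were higher in standard diet mice given Fc(mML1)B3, and 16 of 27 lower under the standard diet than under the HFD in Fc mice.

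Relations between members were examined within groups, for 4 pairs in 4 groups. Pklr and Gckr rose and fell together in Fc mice under the HFD, with Pearson's r of 0.94 (permutation test with 100000 resamples, adjusted p = 0.00416 over 16 tests, raw p = 0.00026, n = 10) and Spearman's rho of 0.93 (permutation test, adjusted p = 0.0032, raw p = 0.0002, n = 10). Without the 2 mice farthest from the median of Pklr, r was 0.94. In the other 3 groups r for this pair was -0.27, -0.10 and 0.50, and no other pair passed in any group. Pck1 and G6pc had r of 0.61 in Fc mice under the HFD and of 0.53 and 0.39 in the standard diet groups, with an adjusted p of at least 0.238 (permutation tests, exact for the groups of 9 and 7). For Fc(mML1)B3 mice under the HFD no pooled r is given for this pair, since Pck1 separated the 2 series.

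**Figure D5:**
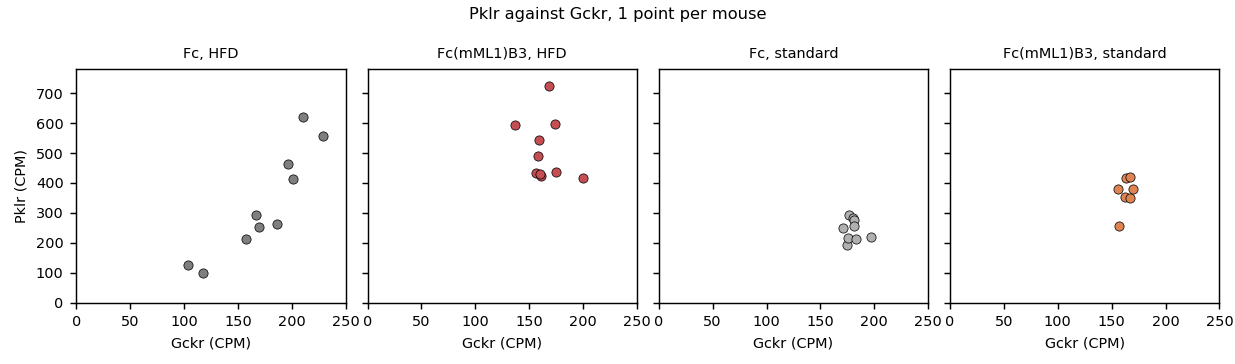
Pklr CPM (y axis) against Gckr CPM (x axis) in each mouse, 1 panel per group. In the Fc mice under the HFD the points run from Gckr 104 and Pklr 127 to Gckr 229 and Pklr 556, and Gckr spans 136.7 to 200.2 in Fc(mML1)B3 mice under the HFD, 171 to 197 in Fc mice and 156 to 170 in Fc(mML1)B3 mice of the standard diet experiment.

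Transcripts most like each member were ranked by Pearson's r over the 36 mice on log2 CPM centred within groups, as a description over libraries that share depth and series. For Pck1 they were Klf15 (0.89), Sds (0.85) and Slc25a51 (0.81). For Fbp1 they were Atp5b (0.90), Pgk1 (0.89) and Fh1 (0.88), and for G6pc Tmcc1 (0.77), Tmem14a (0.72) and Idh3a (0.69). Klf15 is a fasting-responsive transcription factor and Sds, which overlaps Plbd2 on the opposite strand, a serine dehydratase of amino acid breakdown.

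On the glucose entry side, Pklr was most like Gbe1 (0.93), the glycogen branching enzyme, Hcn3 (0.88), its neighbour on chromosome 3 on the opposite strand, and Tkt (0.87). Gckr was most like Slco2b1 (0.92), Pm20d1 (0.85) and Khk (0.85), and Slc2a2 like Pank1 (0.82), Pdk1 (0.79) and Gpd2 (0.77). The kinases shared none of their nearest genes. Pdk2 had Slc38a3 (0.85), D10Jhu81e (0.84) and Lpcat3 (0.83), and Pdk4 had Lgalsl (0.83), Cxcl12 (0.77) and Ypel2 (0.76). Ppargc1a had the weakest likeness, with Mkl2 (0.72), Lpin2 (0.68) and Zfyve1 (0.67).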

How the data were processed

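Liver RNA of 36 mice was sequenced, 1 library per mouse, and grouped by sample title. The deposited values are counts. The authors made them with Fastp for trimming, Bowtie2 2.4.5 against ribosomal RNA, STAR 2.7.10a for alignment to mm10 and featureCounts of Subread 2.0.3 for counting, with both ends required to align, each end counted and no strand option, although the library kit is directional. Overlapping genes on opposite strands were therefore not separated.

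From these counts, each comparison was fitted by itself in edgeR 4.0.16 under R 4.3.3 by quasi-likelihood (F-test, TMM, filterByExpr, Benjamini-Hochberg over all genes tested), and the interaction over all 36 libraries. An SE was obtained as |log2 fold change| over √F. TPM were computed from the counts and the lengths in the files. Alternatives were DESeq2 1.42.0, other normalization, filters and thresholds, a joint fit, sample series, a block on replicate number and omission of single libraries. Use of each series in the diet comparison of Fc(mML1)B3 mice and in the interaction was chosen after seeing the data. Over 147 pairs of libraries of 1 group, the lowest chi-square per degree of freedom reached 6.305, so none was a duplicate. The fits were tested on simulated data.

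The 9 genes and the lists were chosen with earlier results of these data known. Named genes are the members, up to 12 called genes of the 4 lists with the smallest p per comparison, Mlxipl, Foxo1, Txnip, 3 clock genes and the 3 transcripts most like each member. Some of these are not reported here. Mice were housed several to a cage, the sources used here do not say which mice shared a cage or litter, and p-values measure the spread between mice.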

Additional observations from a re-analysis of the deposited data

Results flagged for a closer look

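Of 36 sets of values (9 genes in 4 groups), 2 held a mouse far from the others of its group, and chance gives about 1 in 20. Gckr in Fc mice under the standard diet reached 197 CPM in mouse 3, with the next at 183. Under the same diet Pklr was 257 CPM in Fc(mML1)B3 mouse 1, with the next at 351. Gckr kept its call without Fc mouse 3, and Pklr kept its call without Fc(mML1)B3 mouse 1.

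Between the experiments the Fc(mML1)B3 effect on Pdk2 differed by 0.60 on the log2 scale and that on Slc2a2 by 0.36. Pdk2 was lower under the HFD and higher under the standard diet, both called. For Slc2a2 only the rise under the standard diet was called. Both differences were tested as an interaction, that of Slc2a2 was lost with RLE normalization (adjusted p = 0.0528 in edgeR) and without the filter on low counts (adjusted p = 0.0659 in edgeR), and neither passed with Fc(mML1)B3 HFD mice 1 to 4 alone.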

How the results depend on the processing

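With DESeq2 the members called were 2, 5, 4, 7 and 2 in the 5 comparisons (Fc(mML1)B3 against Fc under the HFD and the standard diet, diet in Fc and in Fc(mML1)B3 mice, and interaction), as with edgeR, and no sign turned. With limits of 0.1 on the adjusted p and 2 on the fold change, 178, 82, 596, 476 and 271 genes and 1, 0, 0, 1 and 1 members were called, and with limits of 0.05 and 1.5 the calls were 532, 320, 2132, 1599 and 593 genes and 1, 0, 0, 3 and 1 members. These limits remove changes below the stated fold by construction.

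In 1 fit over all 36 libraries, 3133 genes were called in the HFD experiment and 785 in the standard diet experiment, with 1 member under the standard diet, 2 for diet in Fc mice and 4 for diet in Fc(mML1)B3 mice. In the interaction, 1 member was called with RLE normalization and 1 without the filter, Slc2a2 being lost at adjusted p = 0.0528 and 0.0659 (edgeR). Pdk4 for diet in Fc mice turned to -0.00 with RLE normalization. The cause was not tested.

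With mice 1 to 4 of the Fc(mML1)B3 HFD group, 705 genes and 0 members were called under the HFD (edgeR; 1 member at an unadjusted p below 0.05), and Pck1 (0.47), Gckr (0.02) and Slc2a2 (0.00) changed sign. Fbp1 did so with mice 5 to 10 (-0.14). For diet in Fc(mML1)B3 mice, mice 1 to 4 gave 4 members and 5571 of 13690 genes (40.7%), and Gckr turned to 0.02 with mice 5 to 10. For the interaction, mice 1 to 4 gave 620 genes and 0 members (edgeR; 2 at an unadjusted p below 0.05), with Pck1 at -0.36 and Pklr at 0.05, and mice 5 to 10 gave 1937 genes and 4 members. With sample numbers above 100, 942 genes were called under the standard diet.

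Same-numbered mice did not deviate together (median correlations of -0.11 to 0.01), so the numbers do not pair them. A replicate block gave 1294 genes under the HFD, 1302 genes and 3 members under the standard diet, and -0.01 for G6pc there.

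Over fits leaving out 1 library each, members called ranged from 1 to 3 under the HFD, 4 to 5 under the standard diet, 1 to 4 for diet in Fc mice and 5 to 7 in Fc(mML1)B3 mice, and genes from 1555 to 2848, 1730 to 2230, 6066 to 6751 and 4489 to 5397. Signs turned for Fbp1 under the HFD (-0.03 to 0.09), for G6pc (-0.09 to 0.17) and Pdk4 (-0.20 to 0.06) under the standard diet, for G6pc (-0.03 to 0.38), Gckr (-0.02 to 0.11) and Pdk4 (-0.12 to 0.11) for diet in Fc mice, and for Gckr (-0.06 to 0.00) in Fc(mML1)B3 mice, none of them called.

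Depth limits Pdk4 and Ppargc1a most, with as few as 64 and 100 reads in a mouse.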
